A study of Homo sapiens with 30 samples.

Results

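The transcripts described are 37 genes that make, sense or move cholesterol and fatty acids, in neuroblastoma cells given antisense oligonucleotides (ASOs). The genes came from a list of symbols, which was chosen with earlier results of these data known. All 37 were found by Ensembl gene ID among 62710 genes in the IMR32 table, and 36 among 57905 genes in each of the NGP and SK-N-BE(2)c tables, where ACACA was not analysed here. The IMR32 fit tested 36 of them, the NGP fit 36 and the SK-N-BE(2)c fit 35, since a mean of at least 10 normalized counts was required. ABCA1 lay under that level in IMR32 (mean 7.45) and SK-N-BE(2)c (mean 1.75).

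RNA was sequenced from 30 libraries of 3 established neuroblastoma cell lines in 9 groups. IMR32 had 4 libraries each with ASO1, ASO2 and NCA, and NGP and SK-N-BE(2)c had 3 libraries each with ASO2, ASO10 and NCA. NESPR, a long non-coding RNA, is the target of ASO1, ASO2 and ASO10, and NCA is the negative control ASO. NESPR itself was not among the genes looked up, so its level was not analysed here. The cells of every group, controls included, received an ASO at 100 nM with lipofectamine 2000, so cells without an ASO are not among the groups. An ASO pairs with its target RNA and can lead to its loss, and it can also act on RNAs other than its target. The labels do not say whether replicates were separate cultures, so p-values measure the spread between these libraries, which may be technical.

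Cells make cholesterol from acetyl-CoA by way of mevalonate, farnesyl pyrophosphate, squalene and lanosterol, and they make fatty acids from the same acetyl-CoA. The transcription factors SREBP1 and SREBP2, encoded by SREBF1 and SREBF2, switch on the genes of both routes. When sterols are low, SCAP carries the SREBPs from the endoplasmic reticulum to the Golgi, where proteases release their active part. When sterols are high, the INSIG proteins hold SCAP back, and oxysterols turn on LXR, whose targets include exporters of cholesterol.

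Reads recovered from the tables numbered from 9393587 to 13932379 a library for IMR32, from 11591178 to 13795561 for NGP and from 11497829 to 15060356 for SK-N-BE(2)c. All 8 adrenergic neuroblastoma markers were detected in every group, although TH was low in IMR32 (mean 26.1 with NCA). Their summed group means were 37200 with ASO2, 34410 with ASO10 and 43760 with NCA for NGP, and 37570, 34720 and 42150 for SK-N-BE(2)c. All 8 means were below NCA with ASO10 in both lines. With ASO2, 2 of 8 were above NCA for NGP and 3 of 8 for SK-N-BE(2)c, among them ISL1 (976 against 659.6) and DBH (4346 against 3614) in the latter. The 8 mesenchymal markers summed to 13900, 11420 and 9750 for NGP and to 3674, 3537 and 2672 for SK-N-BE(2)c, but VIM alone made up most of each sum. Without VIM they summed to 636, 453 and 615 for NGP and to 59.3, 68.1 and 79.5 for SK-N-BE(2)c, and PRRX1 had a mean of at most 2.74 in any group. Of the 3 hepatocyte markers, TTR was at 0 in every library, and APOA1 had a mean of 112 with ASO10 in SK-N-BE(2)c against 13.3 with NCA. In NGP, ALB had 18.7 with ASO10 against 0.304 with NCA, and APOA1 12.2 against 0.295. The part of these shifts in the results was not tested. In NGP and SK-N-BE(2)c, NCA replicate 1 has another column name than replicates 2 and 3. Normalized counts are gene counts divided by a size factor for each library, and they are not compared here between genes or lines.

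With ASO10, most of the 37 genes rose in NGP, whereas more fell than rose in SK-N-BE(2)c. With ASO10 in NGP, 25 of 36 genes rose and 3 fell, where 26.8% of all 14440 genes tested rose and 27.6% fell. With ASO10 in SK-N-BE(2)c, 6 of 35 rose and 16 fell, where 27.8% of all 13556 genes rose and 31.1% fell. With ASO2, 10 rose and 10 fell in NGP (all genes 30.6% and 28.1%), and 9 rose and 18 fell in SK-N-BE(2)c (all genes 33.6% and 33.4%). In IMR32, 9 of 36 rose and 4 fell with ASO1 (all 17309 genes 13.6% and 14.4%), and 1 rose and 16 fell with ASO2 (all genes 17.6% and 14.8%). Without IMR32 ASO1 replicate 1, 7 fell with ASO1. A gene is said to rise or fall where limma gave a Benjamini-Hochberg adjusted p under 0.05 over all genes tested in its line. Changes are log2 fold changes of the normalized count plus 1 against NCA unless another group is named, and SE is their standard error. The comparisons of 2 ASOs with NCA in a line share the NCA libraries, so their values are set side by side and not counted together. In such bulk samples, fewer cells that express a gene and less RNA per cell cannot be told apart.

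**Figure D1:**
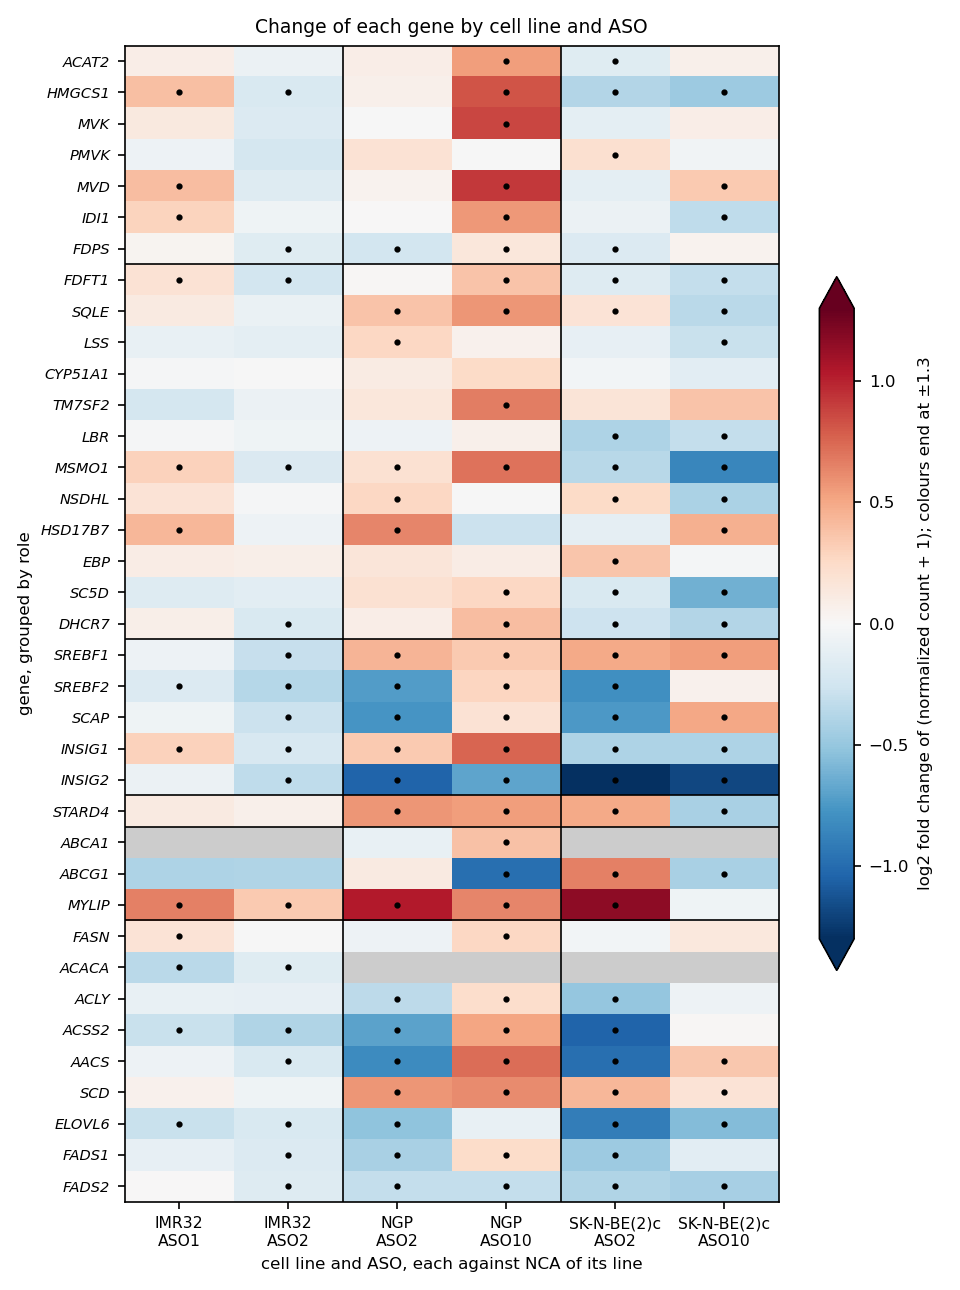
Log2 fold change of each of the 37 genes, grouped by role, for each ASO comparison; the colour scale gives the sign and size, marked cells have an adjusted p under 0.05, and grey cells were not tested. With ASO10 against NCA, NGP holds 25 genes that rose and SK-N-BE(2)c holds 16 that fell.

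Most cholesterol synthesis genes rose with ASO10 in NGP, and most of those called in SK-N-BE(2)c fell. Of 19 such genes, 12 rose and 0 fell in NGP (median log2 fold change 0.37, all genes -0.03), and 2 rose and 10 fell in SK-N-BE(2)c (median -0.29, all genes -0.03). Of all genes tested, 26.8% rose and 27.6% fell with ASO10 in NGP, and 27.8% and 31.1% in SK-N-BE(2)c. The median of these 19 genes against the NCA mean was 0.35, 0.32 and 0.37 in the NGP ASO10 libraries and -0.14, -0.36 and -0.28 in those of SK-N-BE(2)c. It was 0.03, 0.00 and -0.05 in the NCA libraries of NGP and 0.04, -0.06 and 0.03 in those of SK-N-BE(2)c, so that every ASO10 library lay outside the range of its controls. So did every ASO2 library, by less in NGP and with the same sign in each line. There the median was 0.11, 0.05 and 0.15 in NGP and -0.12, -0.10 and -0.17 in SK-N-BE(2)c.

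In the mevalonate pathway, 6 of 7 genes rose with ASO10 in NGP (all genes 26.8%). In SK-N-BE(2)c 1 rose and 2 fell (all genes 27.8% and 31.1%). HMGCS1, the synthase that makes HMG-CoA, had 5863, 5581 and 5559 normalized counts with ASO10 and 3194, 2968 and 3475 with NCA in NGP. The SK-N-BE(2)c values were 1760, 1323 and 1537 with ASO10 and 2067, 2056 and 2251 with NCA. The groups did not overlap in either line and lay in opposite order. Its changes were 0.82 in NGP (SE 0.06, adjusted p 5.26e-12) and -0.47 in SK-N-BE(2)c (SE 0.07, adjusted p 2.69e-06). IDI1, which isomerizes isopentenyl pyrophosphate, had 1319, 1254 and 1315 with ASO10 and 876, 814 and 934 with NCA in NGP, all ASO10 libraries being higher. SK-N-BE(2)c libraries had 749, 519.6 and 589 with ASO10 and 757, 709.8 and 857 with NCA, where ASO10 replicate 1 lay among the controls. IDI1 rose by 0.57 (adjusted p 8.33e-08) and fell by 0.33 (adjusted p 0.0033), and the fall was not called without SK-N-BE(2)c ASO10 replicate 2 (-0.22, adjusted p 0.0511).

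MVD, the decarboxylase that makes isopentenyl pyrophosphate, rose in both lines. It had 1387, 1440 and 1220 with ASO10 and 792, 714 and 634 with NCA in NGP, and 575, 539 and 569 with ASO10 and 468, 411 and 451 with NCA in SK-N-BE(2)c, without overlap. The rise was 0.92 in NGP, with 0.34 in SK-N-BE(2)c, a difference of -0.58 (adjusted p 0.00105). ACAT2, which makes acetoacetyl-CoA, and MVK, mevalonate kinase, rose in NGP by 0.54 and 0.87. Their changes in SK-N-BE(2)c were 0.07 (95% interval -0.05 to 0.19) and 0.09 (-0.10 to 0.27). FDPS, the farnesyl pyrophosphate synthase, rose by 0.15 in NGP, which was not called without NGP ASO10 replicate 2 (0.12, adjusted p 0.066), and had 0.05 in SK-N-BE(2)c. PMVK, phosphomevalonate kinase, was called in neither line (-0.01 and -0.05). Of the exon bases of ACAT2, 52.3% also lie in exons on the opposite strand in GENCODE release 29, as do 18.6% of those of FDPS, 15.0% of HMGCS1 and 14.8% of IDI1. Whether counting used strand is not given in the sources used here. FDPS and HSD17B7 also have pseudogene copies, with which reads could be shared.

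From squalene to cholesterol, 6 of 12 genes rose and 0 fell with ASO10 in NGP (all genes 26.8% and 27.6%). In SK-N-BE(2)c 1 rose and 8 fell (all genes 27.8% and 31.1%). MSMO1, the oxidase that takes methyl groups off early sterols, had 1411, 1106 and 1191 with ASO10 and 751, 709 and 808 with NCA in NGP. In SK-N-BE(2)c it had 347, 207 and 301 with ASO10 and 523, 449 and 544 with NCA. The groups lay apart in both lines, ASO10 higher in NGP and lower in SK-N-BE(2)c. Its changes were 0.70 (SE 0.08, adjusted p 4.63e-08) and -0.85 (SE 0.12, adjusted p 1.21e-06).

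FDFT1 and SQLE, which make squalene and its epoxide, rose by 0.37 and 0.57 in NGP and fell by 0.31 and 0.35 in SK-N-BE(2)c. SC5D and DHCR7, which set the double bonds of the late sterols, rose by 0.27 and 0.40 in NGP and fell by 0.62 and 0.38 in SK-N-BE(2)c. The rise of SC5D was not called without NGP ASO10 replicate 3 or NGP NCA replicate 2 (0.18 to 0.22, adjusted p 0.101 to 0.149). LSS, which closes the ring to lanosterol, and LBR and NSDHL, which act on early sterols, fell in SK-N-BE(2)c by 0.29, 0.31 and 0.41, with 0.05, 0.07 and 0.00 in NGP. TM7SF2, a sterol reductase, rose by 0.67 in NGP and had 0.37 (adjusted p 0.0564) in SK-N-BE(2)c.

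HSD17B7, a sterol ketone reductase, went the other way. It had 112, 118 and 103 with ASO10 and 131, 138 and 134 with NCA in NGP, and 59.5, 67.5 and 53.3 with ASO10 and 44.0, 41.3 and 44.3 with NCA in SK-N-BE(2)c. All ASO10 libraries were lower than NCA in NGP and higher in SK-N-BE(2)c, with -0.28 (adjusted p 0.0546) and 0.46 (adjusted p 0.0492). The rise was not called without SK-N-BE(2)c ASO2 replicate 2, SK-N-BE(2)c ASO10 replicate 1 or 2 or SK-N-BE(2)c NCA replicate 1, 2 or 3 (0.38 to 0.48, adjusted p 0.0523 to 0.171), with no filter on low values (0.46, adjusted p 0.113), after rescaling to equal totals (0.44, adjusted p 0.0615), or with DESeq2 (0.51, adjusted p 0.0618). EBP, a sterol isomerase, was called in neither line (0.09 and -0.02). CYP51A1, the lanosterol demethylase, was not called in any comparison. Of its exon bases 79.4% are shared with another gene on the same strand, so its 48.2 to 71.3 normalized counts in NGP and SK-N-BE(2)c are uncertain.

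The difference between the lines was tested in 1 fit over the 18 libraries of NGP and SK-N-BE(2)c, as the ASO10 effect in SK-N-BE(2)c minus that in NGP. Each effect is a difference within 1 table, so the separate scaling of the tables drops out of it. Errors of the size factors within a line do not drop out. Rescaling every library to the same total moved the median difference of all genes by -0.01 for ASO10 and -0.06 for ASO2. In this fit 21 of 36 genes had a lower effect in SK-N-BE(2)c and 2 a higher one, where 8.78% and 8.09% of all 14537 genes tested did. ABCA1, counted among the lower, was under the filter in SK-N-BE(2)c, and 20 of the 35 genes past it in both lines were lower. The differences were -1.56 for MSMO1 (SE 0.18, adjusted p 2.52e-06), -1.29 for HMGCS1 (SE 0.10, adjusted p 1.98e-08), -0.91 for SQLE, -0.90 for IDI1, -0.89 for SC5D, -0.78 for DHCR7, -0.78 for MVK, -0.68 for FDFT1 and -0.47 for ACAT2. LBR differed by -0.38, LSS by -0.34 and NSDHL by -0.41. The call for LSS was lost without NGP ASO10 replicate 2, SK-N-BE(2)c ASO10 replicate 2 or 3 or SK-N-BE(2)c NCA replicate 1 (-0.31 to -0.29, adjusted p 0.0676 to 0.0747), or with no filter on low values (-0.34, adjusted p 0.0658), and that for NSDHL without NGP ASO10 replicate 2, NGP NCA replicate 1, SK-N-BE(2)c ASO10 replicate 2 or 3 or SK-N-BE(2)c NCA replicate 1 (-0.40 to -0.33, adjusted p 0.0507 to 0.0873), or with no filter on low values (-0.41, adjusted p 0.0528). HSD17B7 (0.74) and SCAP (0.32, adjusted p 0.0413) had the higher effects in SK-N-BE(2)c, and the call for SCAP was lost without NGP ASO10 replicate 1 or 3, NGP NCA replicate 1 or 2, SK-N-BE(2)c ASO10 replicate 2 or 3 or SK-N-BE(2)c NCA replicate 2 or 3 (0.25 to 0.33, adjusted p 0.0608 to 0.131), with no filter on low values (0.32, adjusted p 0.0959), or after rescaling to equal totals (0.30, adjusted p 0.0535).

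Of 35 genes tested in both lines, 9 rose in NGP and fell in SK-N-BE(2)c with ASO10, which was 9 of the 25 that rose in NGP and 9 of the 16 that fell in SK-N-BE(2)c. They were HMGCS1, IDI1, FDFT1, SQLE, MSMO1, SC5D, DHCR7, INSIG1 and STARD4, and the difference between the lines was called for 9 of them. Over all 12637 genes tested in both lines, 141 or 1.12% had this pattern. The difference was called for 141 of these 141 too, so for genes picked by this pattern it adds no support. Leaving out each of the 18 libraries in turn gave 8 to 10. This pattern was counted after its values were seen.

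**Figure D2:**
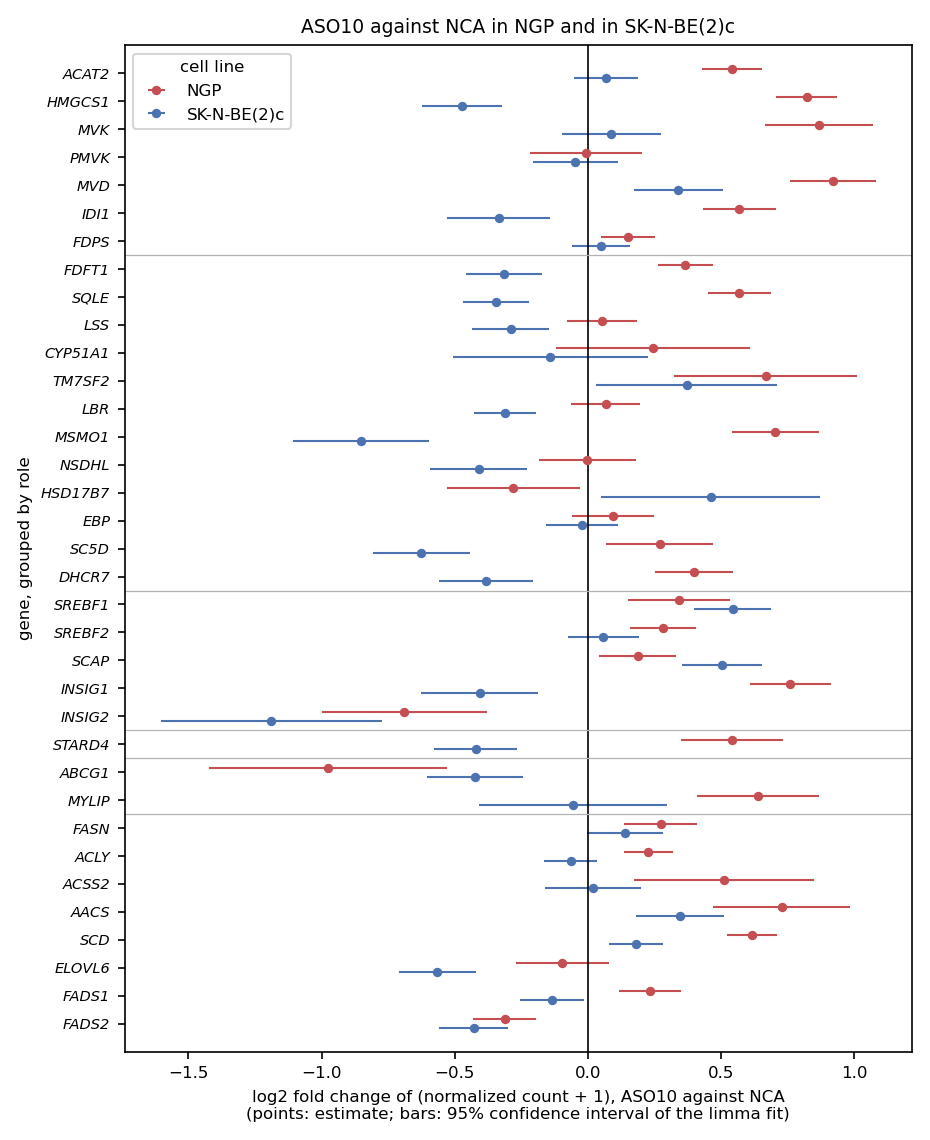
Log2 fold change with ASO10 against NCA in NGP (red) and in SK-N-BE(2)c (blue) for each gene tested in both (points), with its 95% confidence interval (bars), grouped by role. HMGCS1, MSMO1 and INSIG1 lie above 0 in NGP (0.82, 0.70 and 0.76) and below it in the other line (-0.47, -0.85 and -0.41), while INSIG2 lies below 0 in both lines.

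The promoters of these genes in RefSeq (GRCh38.p14, 250 bases before to 50 after each start) were searched on both strands for motifs known from sterol genes. The sterol regulatory element, which SREBP binds, was searched as CACNCCAC, the box of its partner NF-Y as CCAAT and the Sp1 box as GGGCGG. Of the 37 genes, 32 were in the promoter table, with 43 promoters. At least 1 promoter held the sterol regulatory element in 7 of them (21.9%, against 7.04% of 27058 genes), the NF-Y box in 22 (68.8%, against 39.8%) and the Sp1 box in 30 (93.8%, against 48.2%). Both the element and the NF-Y box were in 6 genes (18.8%, against 2.24%), namely IDI1, SC5D, SREBF2, INSIG1, ACACA and SCD. The longer TCACNCCAC, which contains the shorter element, was in the promoter of SREBF2 and in 1.38% of all genes. The 27058 genes were all those with promoters, not only genes tested here, so the members were not compared with expressed genes alone. A match describes the letters and is not a measured site.

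The 250 bases before the start are shown for 4 genes that ASO10 moved in opposite directions in the 2 lines, and for SREBF2, which fell with ASO2. Capitals mark NF-Y boxes and sterol regulatory elements on either strand. Where the table had several promoters, the one with most matches is shown.
HMGCS1 (chr5:43313413-43313662, minus strand): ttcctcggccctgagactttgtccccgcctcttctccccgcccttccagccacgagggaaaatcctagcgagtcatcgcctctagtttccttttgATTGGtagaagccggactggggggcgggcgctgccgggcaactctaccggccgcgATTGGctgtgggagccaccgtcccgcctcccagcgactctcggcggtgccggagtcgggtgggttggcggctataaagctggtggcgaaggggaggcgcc
IDI1 (chr10:1048887-1049136, minus strand): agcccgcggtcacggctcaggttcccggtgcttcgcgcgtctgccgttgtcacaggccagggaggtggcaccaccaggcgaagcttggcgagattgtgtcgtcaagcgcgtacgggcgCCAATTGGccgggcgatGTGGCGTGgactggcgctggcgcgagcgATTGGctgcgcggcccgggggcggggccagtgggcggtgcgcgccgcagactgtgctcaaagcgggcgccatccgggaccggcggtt
MSMO1 (chr4:165327419-165327668, plus strand): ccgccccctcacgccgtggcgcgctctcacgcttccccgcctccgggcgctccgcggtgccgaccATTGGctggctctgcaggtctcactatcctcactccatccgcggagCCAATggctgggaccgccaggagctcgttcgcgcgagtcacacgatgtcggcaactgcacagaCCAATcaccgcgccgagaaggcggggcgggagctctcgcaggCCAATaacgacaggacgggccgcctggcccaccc
INSIG1 (chr7:155297628-155297877, plus strand): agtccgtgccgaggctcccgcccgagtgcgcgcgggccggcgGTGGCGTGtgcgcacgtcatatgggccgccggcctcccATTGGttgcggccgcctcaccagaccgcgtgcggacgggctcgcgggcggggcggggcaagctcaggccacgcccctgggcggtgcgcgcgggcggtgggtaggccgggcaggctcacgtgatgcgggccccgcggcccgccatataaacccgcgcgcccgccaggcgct
SREBF2 (chr22:41832855-41833104, plus strand): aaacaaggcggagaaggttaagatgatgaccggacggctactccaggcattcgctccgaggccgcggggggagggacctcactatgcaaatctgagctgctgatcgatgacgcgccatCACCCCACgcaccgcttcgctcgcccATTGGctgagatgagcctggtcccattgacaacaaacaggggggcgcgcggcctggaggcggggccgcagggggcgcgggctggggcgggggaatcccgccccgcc

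MSMO1 had 4 NF-Y boxes and 0 sterol regulatory elements in this window, HMGCS1 had 2 and 0, and IDI1 had 3 NF-Y boxes, of which a pair on opposite strands overlap, and 1 element. INSIG1 and SREBF2 had 1 NF-Y box and 1 element each.

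Among SREBP and its regulators, SREBF2 and SCAP fell with ASO2 in both lines. SREBF2 had 2001, 2275 and 2091 normalized counts with ASO2, 4449, 4429 and 3942 with ASO10 and 3542, 3693 and 3295 with NCA in NGP. Its SK-N-BE(2)c libraries had 2011, 2013 and 1719 with ASO2, 3645, 3274 and 3421 with ASO10 and 3612, 3225 and 3108 with NCA. The ASO2 libraries were the lowest of their line in both. SREBF2 fell with ASO2 by 0.73 in NGP (SE 0.06, adjusted p 2e-10) and by 0.79 in SK-N-BE(2)c (SE 0.06, adjusted p 1.71e-11). With ASO10 it rose by 0.28 in NGP and had 0.06 (95% interval -0.08 to 0.19) in SK-N-BE(2)c. ASO2 against ASO10 gave -1.01 (adjusted p 3.7e-13) in NGP and -0.85 (adjusted p 4.28e-12) in SK-N-BE(2)c.

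SCAP had 882, 1011 and 988 normalized counts with ASO2, 1872, 2043 and 1696 with ASO10 and 1655, 1713 and 1548 with NCA in NGP. The values in SK-N-BE(2)c were 586, 513 and 492 with ASO2, 1191, 1348 and 1235 with ASO10 and 906, 892 and 861 with NCA. The ASO2 libraries were lowest in both lines, and in SK-N-BE(2)c every ASO10 library lay above every NCA library. SCAP, the escort of the SREBPs, fell with ASO2 by 0.77 in NGP and by 0.74 in SK-N-BE(2)c and rose with ASO10 by 0.19 and 0.50. The rise in NGP was not called without NGP ASO10 replicate 1 or 2 or NGP NCA replicate 1 or 3 (0.12 to 0.20, adjusted p 0.0538 to 0.183), or with no filter on low values (0.19, adjusted p 0.0544). ASO2 against ASO10 gave -0.96 in NGP, with -1.25 in SK-N-BE(2)c.

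The INSIG genes, whose proteins hold SCAP back, did not move alike. INSIG2 had 69.6, 84.9 and 70.1 normalized counts with ASO2, 106, 79.9 and 103 with ASO10 and 165, 145 and 154 with NCA in NGP. Among the SK-N-BE(2)c libraries it had 26.5, 31.7 and 27.6 with ASO2, 44.6, 36.8 and 44.7 with ASO10 and 91.0, 86.7 and 115 with NCA. The NCA libraries were the highest of their line in both. INSIG2 changed by -1.04 with ASO2 and -0.69 with ASO10 in NGP, and by -1.73 (SE 0.20, adjusted p 1.91e-08) and -1.19 in SK-N-BE(2)c. ASO2 against ASO10 gave -0.35 in NGP, with -0.54 in SK-N-BE(2)c. The call in NGP was lost without NGP ASO2 replicate 1 or 3, NGP ASO10 replicate 1 or 3 or NGP NCA replicate 1 or 2 (-0.35 to -0.28, adjusted p 0.051 to 0.174), with no filter on low values (-0.35, adjusted p 0.0727), or with DESeq2 (-0.38, adjusted p 0.0675), and that in SK-N-BE(2)c without SK-N-BE(2)c ASO2 replicate 1 or SK-N-BE(2)c ASO10 replicate 1 or 3 (-0.49, adjusted p 0.0568 to 0.0681), or with no filter on low values (-0.54, adjusted p 0.0548).

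INSIG1 had 762, 759 and 877 normalized counts with ASO2, 1158, 1019 and 1039 with ASO10 and 618, 626 and 652 with NCA in NGP. Counts in SK-N-BE(2)c were 441, 486 and 470.3 with ASO2, 580.3, 370.3 and 465 with ASO10 and 653, 559.6 and 638 with NCA. In NGP the libraries with ASO2 and with ASO10 lay above NCA, whereas in SK-N-BE(2)c those with ASO2 lay below it and ASO10 replicate 1 lay within it. INSIG1, itself a strong SREBP target, changed by 0.34 with ASO2 and 0.76 with ASO10 in NGP and by -0.40 and -0.41 in SK-N-BE(2)c. Without SK-N-BE(2)c ASO10 replicate 2 the last value was smaller (-0.24, adjusted p 0.0377). SK-N-BE(2)c minus NGP was -0.74 for ASO2 (adjusted p 0.00159) and -1.17 for ASO10 (adjusted p 1.27e-05).

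SREBF1 had 681, 704 and 771 normalized counts with ASO2, 665, 775 and 575 with ASO10 and 502, 584 and 497 with NCA in NGP. Its SK-N-BE(2)c libraries had 1589, 1439 and 1347 with ASO2, 1545, 1490 and 1498 with ASO10 and 1149, 1028 and 941 with NCA. Only ASO10 replicate 3 in NGP overlapped the controls of its line. SREBF1, whose product acts mainly on fatty acid genes, rose by 0.45 with ASO2 and 0.34 with ASO10 in NGP and by 0.49 and 0.54 in SK-N-BE(2)c. ASO2 against ASO10 was not called, at 0.11 in NGP (95% interval -0.09 to 0.30), nor in SK-N-BE(2)c at -0.05 (-0.20 to 0.09).

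**Figure D3:**
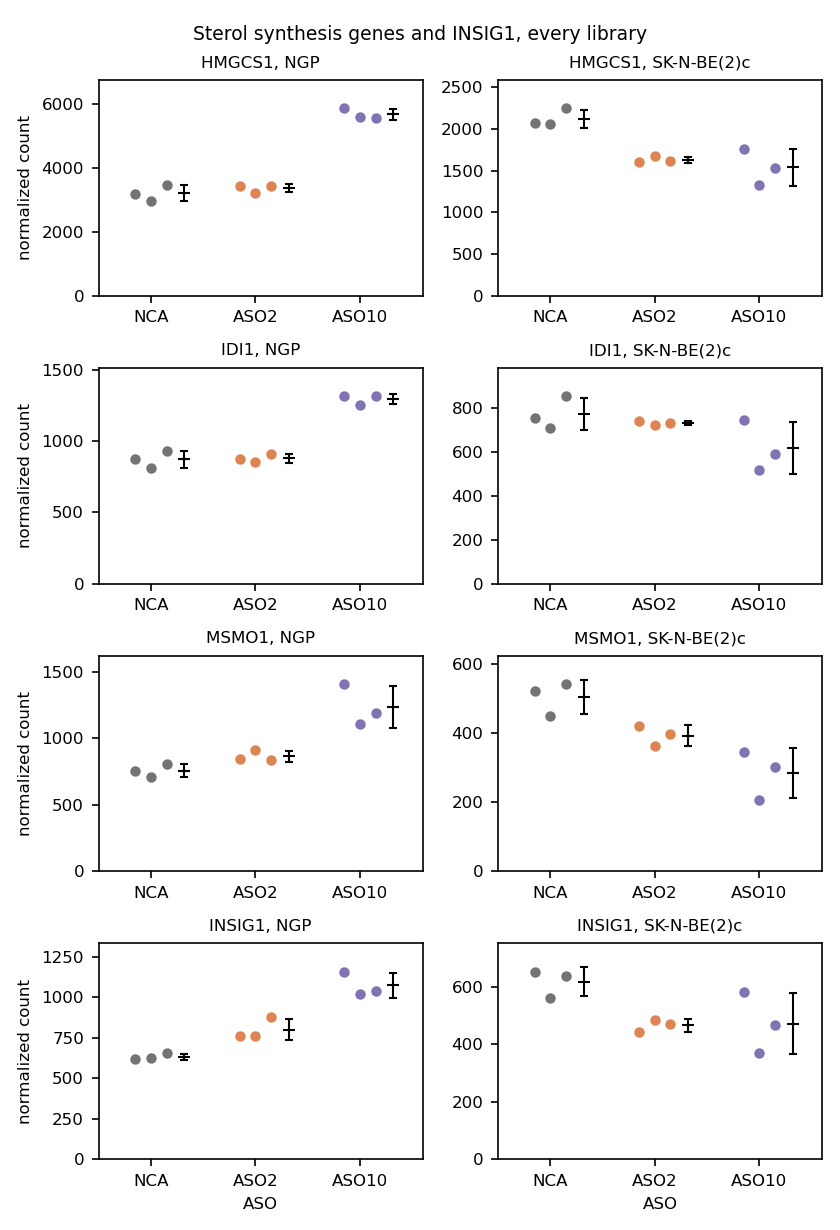
Normalized counts of sterol genes with ASO2, ASO10 and NCA in NGP and SK-N-BE(2)c, with 1 point for each library and the group mean with its SD. For HMGCS1 and MSMO1 the ASO10 libraries lie above the NCA libraries in NGP and below them in SK-N-BE(2)c.

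**Figure D4:**
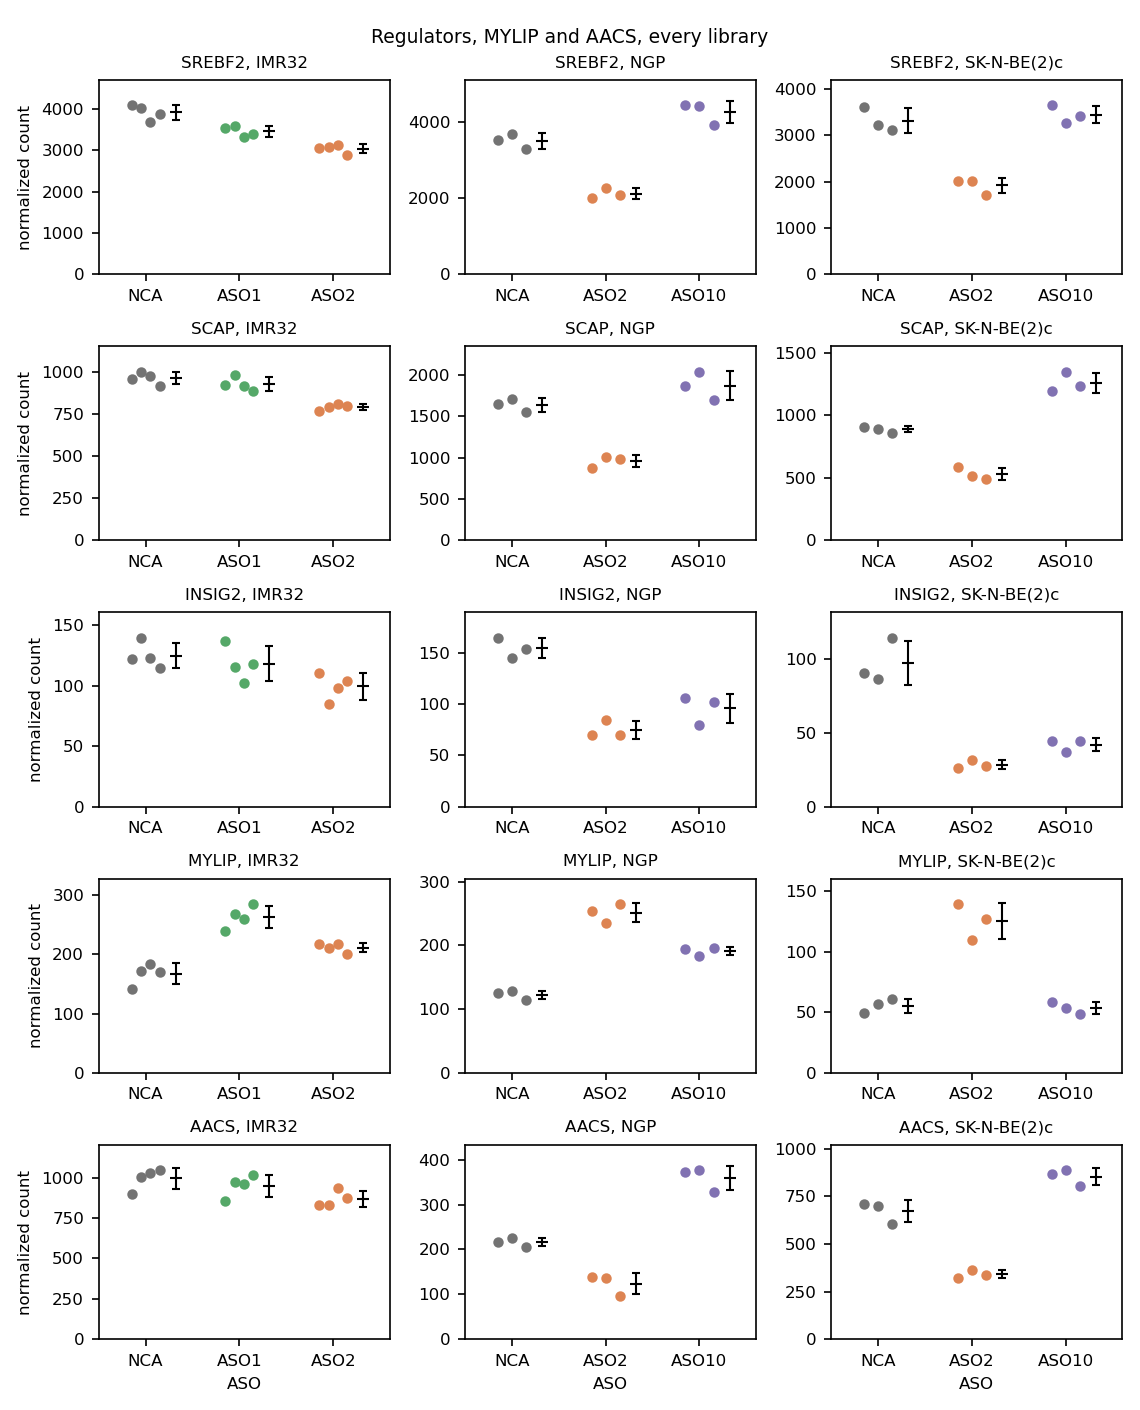
Normalized counts of SREBP regulators and other members by ASO in each cell line, with 1 point for each library and the group mean with its SD. The ASO2 libraries of NGP and SK-N-BE(2)c lie below the NCA libraries for SREBF2 and SCAP.

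STARD4 had 1248, 1216 and 1171 normalized counts with ASO2, 1279, 1134 and 1138 with ASO10 and 826, 661 and 979 with NCA in NGP. The values in SK-N-BE(2)c were 1707, 1691 and 1621 with ASO2, 1038, 788 and 850.0 with ASO10 and 1265, 1157 and 1140 with NCA. STARD4, which carries cholesterol between membranes, was above NCA with each ASO in NGP. For SK-N-BE(2)c it was above NCA with ASO2 and below it with ASO10. It rose with ASO2 by 0.58 in NGP and by 0.50 in SK-N-BE(2)c. With ASO10 it rose by 0.54 in NGP and fell by 0.42 in SK-N-BE(2)c, a difference of -0.96 (adjusted p 6.61e-05).

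The LXR targets did not move as a group. MYLIP had 254, 235 and 265 normalized counts with ASO2, 194, 184 and 196 with ASO10 and 125, 128 and 115 with NCA in NGP. Among the SK-N-BE(2)c libraries it had 139, 109.7 and 127 with ASO2, 58.6, 53.2 and 48.2 with ASO10 and 49.2, 56.5 and 60.7 with NCA. The libraries with ASO2 lay above NCA in both lines, and those with ASO10 lay above NCA in NGP and overlapped it in SK-N-BE(2)c. MYLIP, a ubiquitin ligase that removes lipoprotein receptors, rose with ASO2 by 1.03 in NGP and by 1.16 in SK-N-BE(2)c (SE 0.17, adjusted p 1.05e-06). With ASO10 it rose by 0.64 in NGP and had -0.05 (95% interval -0.41 to 0.30) in SK-N-BE(2)c, a difference of -0.69 (adjusted p 0.0149).

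ABCG1 had 65.0, 67.1 and 97.9 normalized counts with ASO2, 36.7, 44.7 and 25.6 with ASO10 and 76.5, 76.2 and 57.4 with NCA in NGP. Counts in SK-N-BE(2)c were 553, 663 and 635 with ASO2, 291, 285 and 293 with ASO10 and 402, 408 and 359.5 with NCA. ASO10 was the lowest group in both lines, and in SK-N-BE(2)c ASO2 was the highest. ABCG1, a cholesterol exporter, fell with ASO10 by 0.98 in NGP and by 0.43 in SK-N-BE(2)c. With ASO2 it rose by 0.66 in SK-N-BE(2)c and had 0.12 (95% interval -0.33 to 0.56) in NGP. ASO2 against ASO10 gave 1.09 in NGP, with 1.08 in SK-N-BE(2)c. ABCA1, another exporter, had 643, 581 and 622 with ASO10 and 466, 486 and 469 with NCA in NGP, a rise of 0.38, and -0.10 with ASO2. ABCA1 had at most 3.86 normalized counts in SK-N-BE(2)c, and it entered the fit over both lines through NGP alone. So no difference is read from its ASO10 call there (-1.50, and -0.80, adjusted p 0.0208, with pseudocount 5), which was lost without NGP ASO2 replicate 1, 2 or 3, NGP ASO10 replicate 1, 2 or 3, NGP NCA replicate 1, 2 or 3, SK-N-BE(2)c ASO10 replicate 2 or 3 or SK-N-BE(2)c NCA replicate 2 or 3 (-1.59 to -1.08, adjusted p 0.0513 to 0.126), with no filter on low values (-1.50, adjusted p 0.0906), with edgeR (-1.97, adjusted p 0.0823), or with DESeq2 (-2.07, adjusted p 0.121).

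Most genes of acetyl-CoA supply and of fatty acid synthesis, elongation and desaturation fell with ASO2. Of the 8 tested, 1 rose and 6 fell in NGP (median -0.38, all genes 0.01), and 1 rose and 6 fell in SK-N-BE(2)c (median -0.49, all genes -0.02). Of all genes tested, 30.6% rose and 28.1% fell with ASO2 in NGP, and 33.6% and 33.4% in SK-N-BE(2)c. With ASO10, 6 rose and 1 fell in NGP (median 0.25), and 2 rose and 2 fell in SK-N-BE(2)c (median -0.02). The shares of all genes were then 26.8% and 27.6% in NGP, and 27.8% and 31.1% in SK-N-BE(2)c. The SK-N-BE(2)c counts with ASO10 were near these shares. AACS had 139, 135 and 96.8 normalized counts with ASO2, 373, 377 and 328 with ASO10 and 218, 225 and 206 with NCA in NGP. Its SK-N-BE(2)c libraries had 323, 364 and 335 with ASO2, 869.5, 888 and 806 with ASO10 and 713, 702 and 606 with NCA. The 3 groups did not overlap in either line, with ASO2 lowest and ASO10 highest. AACS, which activates acetoacetate for lipid synthesis, fell with ASO2 by 0.82 and 0.98 and rose with ASO10 by 0.73 and 0.35 in NGP and SK-N-BE(2)c. ASO2 against ASO10 gave -1.55 (SE 0.12) in NGP and -1.33 (SE 0.08) in SK-N-BE(2)c.

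ACSS2 had 65.9, 82.0 and 79.0 normalized counts with ASO2, 184, 132 and 221 with ASO10 and 139, 119 and 112 with NCA in NGP. The values in SK-N-BE(2)c were 224, 227 and 239 with ASO2, 498, 450.1 and 489.5 with ASO10 and 436, 498 and 485 with NCA. ASO2 was the lowest group in both lines, and ASO10 overlapped NCA. ACSS2, which makes acetyl-CoA from acetate, fell with ASO2 by 0.70 in NGP and by 1.04 in SK-N-BE(2)c. Its rise of 0.51 with ASO10 in NGP was not called without NGP ASO10 replicate 3 (0.34, adjusted p 0.101). ACLY had 7892, 8260 and 7781 normalized counts with ASO2, 12013, 12285 and 11170 with ASO10 and 10110, 10220 and 9935 with NCA in NGP. Among the SK-N-BE(2)c libraries it had 6397, 6956 and 6854 with ASO2, 9333, 9006 and 9039 with ASO10 and 10011, 9287 and 9346 with NCA. ASO2 was again the lowest group, and ASO10 lay above NCA in NGP and overlapped it in SK-N-BE(2)c. ACLY, which makes acetyl-CoA from citrate, fell with ASO2 by 0.34 and 0.50, and with ASO10 it rose by 0.23 in NGP and had -0.06 in SK-N-BE(2)c.

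ELOVL6 had 625, 718 and 579.6 normalized counts with ASO2, 817, 831 and 929 with ASO10 and 866, 860.4 and 1034 with NCA in NGP. Counts in SK-N-BE(2)c were 543, 501 and 511 with ASO2, 665, 633 and 665 with ASO10 and 984, 924 and 999 with NCA. ASO2 was the lowest group in both lines, and ASO10 lay below NCA in SK-N-BE(2)c and overlapped it in NGP. ELOVL6, which lengthens saturated and monounsaturated fatty acids, changed by -0.52 with ASO2 and -0.10 with ASO10 in NGP and by -0.90 and -0.56 in SK-N-BE(2)c. FADS2 had 3398, 3767 and 3661 normalized counts with ASO2, 3592, 3894 and 3310 with ASO10 and 4546, 4507 and 4328 with NCA in NGP. Its SK-N-BE(2)c libraries had 2356, 2405 and 2200 with ASO2, 2522, 2107 and 2168 with ASO10 and 3206, 2968 and 2952 with NCA. All NCA libraries were higher than those with ASO2 or ASO10. FADS2, a desaturase of polyunsaturated fatty acids, fell with ASO2 by 0.31 and 0.39 and with ASO10 by 0.31 and 0.43. FADS1, which acts after it, fell with ASO2 by 0.42 in NGP and by 0.48 in SK-N-BE(2)c, rose with ASO10 by 0.23 in NGP and had -0.13 (adjusted p 0.0524) in SK-N-BE(2)c.

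SCD, the stearoyl-CoA desaturase, was the fatty acid gene that rose with ASO2 in both lines. SCD had 8042, 7847 and 8518 normalized counts with ASO2, 8622, 8465 and 8105 with ASO10 and 5507, 5512 and 5420 with NCA in NGP. The values in SK-N-BE(2)c were 4907, 5093 and 5110 with ASO2, 4274, 4258 and 4213 with ASO10 and 3745, 3585 and 3909 with NCA. All NCA libraries were lower than those with ASO2 or ASO10. SCD rose by 0.57 with ASO2 and 0.62 with ASO10 in NGP and by 0.43 and 0.18 in SK-N-BE(2)c, and the ASO10 effect was smaller in SK-N-BE(2)c (difference -0.43, adjusted p 4.26e-05). The ASO10 effect was also lower in SK-N-BE(2)c for ELOVL6 (-0.47), FADS1 (-0.37) and ACLY (-0.29). FASN, the fatty acid synthase, had -0.07 (NGP) and -0.03 (SK-N-BE(2)c) with ASO2, rose by 0.27 with ASO10 in NGP and had 0.14 (adjusted p 0.0846) in SK-N-BE(2)c.

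For ASO2, 9 of 36 genes had a lower effect in SK-N-BE(2)c than in NGP and 0 a higher one by limma, where 7.95% and 8.79% of all genes did. The lower count was 15 after rescaling to equal totals, 5 with no filter on low values and 5 without SK-N-BE(2)c NCA replicate 3. An unadjusted p under 0.05 for a higher effect was reached by 2 (EBP and ABCG1), and edgeR and DESeq2 called 1 and 1. The 9 were ACAT2, HMGCS1, LSS, LBR, MSMO1, HSD17B7, DHCR7, INSIG1 and ELOVL6. The calls were lost for ACAT2 without NGP ASO2 replicate 3, SK-N-BE(2)c ASO2 replicate 1 or SK-N-BE(2)c NCA replicate 3 (-0.22 to -0.21, adjusted p 0.0557 to 0.0677), or with no filter on low values (-0.24, adjusted p 0.0574), for LSS without SK-N-BE(2)c ASO2 replicate 3 (-0.30, adjusted p 0.0523), for MSMO1 without NGP ASO2 replicate 1 or 2, NGP NCA replicate 1 or 2, SK-N-BE(2)c ASO2 replicate 2 or 3 or SK-N-BE(2)c NCA replicate 1 or 3 (-0.57 to -0.50, adjusted p 0.0529 to 0.0827), or with no filter on low values (-0.55, adjusted p 0.0919), for DHCR7 without NGP ASO2 replicate 1, 2 or 3, NGP NCA replicate 2 or 3, SK-N-BE(2)c ASO2 replicate 3 or SK-N-BE(2)c NCA replicate 1 or 3 (-0.38 to -0.27, adjusted p 0.0509 to 0.125), or with no filter on low values (-0.36, adjusted p 0.103), and for ELOVL6 without NGP ASO2 replicate 2, NGP NCA replicate 1 or 2, SK-N-BE(2)c ASO2 replicate 2 or SK-N-BE(2)c NCA replicate 3 (-0.36 to -0.29, adjusted p 0.0505 to 0.0816), or with no filter on low values (-0.38, adjusted p 0.0596).

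A fall with ASO2 in both lines was called for 10 of 35 genes, which was 10 of the 10 that fell in NGP and 10 of the 18 in SK-N-BE(2)c. This was 28.6% of the 35, near the 24% of all 12637 genes tested in both lines that fell in both. Of all genes, 4060 fell in NGP and 3029 fell in both, so most that fell in NGP also fell in SK-N-BE(2)c. The members were FDPS, SREBF2, SCAP, INSIG2, ACLY, ACSS2, AACS, ELOVL6, FADS1 and FADS2, and leaving out each library in turn gave 10 to 11. A rise in both lines was called for 6 (SQLE, NSDHL, SREBF1, STARD4, MYLIP and SCD), which was 6 of the 10 in NGP and 6 of the 9 in SK-N-BE(2)c. These 6 were 17.1% of the 35, below the 25.4% of all genes that rose in both. Both counts were made after their values were seen.

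Among sterol synthesis genes with ASO2, several calls were lost when 1 library was left out. In NGP 5 of the 19 rose (all genes 30.6%), namely SQLE (0.37), LSS (0.27), MSMO1 (0.20), NSDHL (0.27) and HSD17B7 (0.64). FDPS alone fell, by 0.24 (all genes 28.1%). The rise of MSMO1 was not called without NGP ASO2 replicate 1 or 2 or NGP NCA replicate 1 or 2 (0.15 to 0.21, adjusted p 0.0603 to 0.148), with no filter on low values (0.20, adjusted p 0.0811), after rescaling to equal totals (0.13, adjusted p 0.176), or with DESeq2 (0.19, adjusted p 0.0558), nor that of NSDHL without NGP ASO2 replicate 3 (0.22, adjusted p 0.0701), or after rescaling to equal totals (0.20, adjusted p 0.0593). With ASO2 in SK-N-BE(2)c 8 of the 19 fell (all genes 33.4%), namely ACAT2 (-0.16), HMGCS1 (-0.38), FDPS (-0.18), FDFT1 (-0.17), LBR (-0.40), MSMO1 (-0.36), SC5D (-0.20) and DHCR7 (-0.27). The calls were lost for ACAT2 without SK-N-BE(2)c ASO2 replicate 1 or 2 or SK-N-BE(2)c NCA replicate 3 (-0.15 to -0.12, adjusted p 0.0558 to 0.0924), for FDFT1 without SK-N-BE(2)c ASO2 replicate 1 or 3 or SK-N-BE(2)c NCA replicate 2 or 3 (-0.18 to -0.14, adjusted p 0.0538 to 0.11), with no filter on low values (-0.17, adjusted p 0.0704), or with DESeq2 (-0.16, adjusted p 0.059), for MSMO1 without SK-N-BE(2)c ASO2 replicate 2 or SK-N-BE(2)c NCA replicate 3 (-0.30, adjusted p 0.0531 to 0.0698), or with DESeq2 (-0.35, adjusted p 0.0937), for SC5D without SK-N-BE(2)c ASO2 replicate 1, 2 or 3, SK-N-BE(2)c ASO10 replicate 3 or SK-N-BE(2)c NCA replicate 1, 2 or 3 (-0.22 to -0.18, adjusted p 0.0536 to 0.12), with no filter on low values (-0.20, adjusted p 0.0901), or with DESeq2 (-0.19, adjusted p 0.0749), and for DHCR7 without SK-N-BE(2)c ASO2 replicate 3 (-0.18, adjusted p 0.0742).

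With ASO2 4 of these genes rose in SK-N-BE(2)c (all genes 33.6%), EBP by 0.36, NSDHL by 0.25, PMVK by 0.21 and SQLE by 0.18. With every library rescaled to the same total, the median of all genes in this comparison moved by -0.14 and that of ASO2 against ASO10 in SK-N-BE(2)c by -0.11. EBP then had 0.23, adjusted p 0.00306. The calls were lost for NSDHL without SK-N-BE(2)c ASO2 replicate 2 or SK-N-BE(2)c NCA replicate 2 (0.22, adjusted p 0.061 to 0.0638), or after rescaling to equal totals (0.11, adjusted p 0.276), for PMVK without SK-N-BE(2)c ASO2 replicate 2 or SK-N-BE(2)c NCA replicate 2 (0.18 to 0.20, adjusted p 0.0575 to 0.0762), or after rescaling to equal totals (0.08, adjusted p 0.396), and for SQLE without SK-N-BE(2)c NCA replicate 2 (0.15, adjusted p 0.0622), or after rescaling to equal totals (0.04, adjusted p 0.547). The falls became larger by that scaling, as for ACAT2 (-0.30, adjusted p 6.27e-05), FDPS (-0.32, adjusted p 6.56e-06), FDFT1 (-0.31, adjusted p 0.00042), SC5D (-0.34, adjusted p 0.00177) and DHCR7 (-0.41, adjusted p 0.000191).

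ASO2 and ASO10 were also compared directly, with the spread estimated over all libraries of the line, NCA included. In NGP 5 of 36 genes were higher and 22 lower with ASO2 (all genes 30.6% and 28%), 3 being higher without NGP ASO2 replicate 3, and for SK-N-BE(2)c 12 of 35 were higher and 14 lower (all genes 34.6% and 30.8%). Of the 19 cholesterol synthesis genes, 3 were higher and 11 lower with ASO2 in NGP, and 8 were higher and 5 lower in SK-N-BE(2)c. Of the 8, PMVK, IDI1 and LSS were not called after rescaling to equal totals (0.15, 0.15 and 0.07, adjusted p 0.0971, 0.166 and 0.431). The calls for IDI1 and LSS were also lost with DESeq2 or when single libraries were left out. Leaving out single libraries also ended those for MVK and HSD17B7, among the 5 lower, and for LSS, NSDHL and TM7SF2 in NGP. HMGCS1 had -0.76 in NGP and 0.09 (95% interval -0.06 to 0.24) in SK-N-BE(2)c, and MSMO1 had -0.51 and 0.49. Without SK-N-BE(2)c ASO10 replicate 2 the latter was smaller (0.28, adjusted p 0.0211). ACSS2 was lower with ASO2 in both lines (-1.21 and -1.06), as were ACLY (-0.57 and -0.44) and FADS1 (-0.66 and -0.34), and MYLIP was higher (0.39 and 1.22).

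In IMR32 the sterol synthesis genes that were called rose with ASO1 and fell with ASO2. Of the 19 cholesterol synthesis genes, 6 rose and 0 fell with ASO1, and 0 rose and 5 fell with ASO2, while 13 and 14 were not called. Of all genes tested, 13.6% rose and 14.4% fell with ASO1, and 17.6% and 14.8% with ASO2. The median of the 19 against the NCA mean was 0.20, 0.15, 0.06 and -0.01 in the ASO1 libraries. It was -0.11, -0.12, -0.19 and -0.11 with ASO2 and 0.05, 0.02, -0.04 and -0.03 with NCA. Thus ASO1 replicate 4 lay within the range of the controls, and every ASO2 library lay below it. HMGCS1 had 4994, 4432, 4624 and 4029 with ASO1, 3220, 3006, 2847 and 2866 with ASO2 and 3531, 3477, 3412 and 3297 with NCA. The 3 groups did not overlap, with ASO1 highest and ASO2 lowest, and the changes were 0.39 (SE 0.06, adjusted p 2.76e-05) and -0.20 (SE 0.06, adjusted p 0.0101). MSMO1 had 1085, 1039, 1052 and 855 with ASO1, 732, 707, 688 and 730.2 with ASO2 and 782, 840.1, 839 and 802 with NCA, in the same order and without overlap. It rose by 0.30 with ASO1 and fell by 0.19 with ASO2, and the fall was not called without IMR32 ASO2 replicate 2 or 3 or IMR32 NCA replicate 2 or 3 (-0.19 to -0.17, adjusted p 0.0595 to 0.072). INSIG1 had 1685, 1659, 1610 and 1435 with ASO1, 1135, 1146, 1108 and 1103 with ASO2 and 1267, 1315, 1298 and 1301 with NCA, again in that order. It rose by 0.30 and fell by 0.21.

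MVD, IDI1 and HSD17B7 also rose with ASO1, by 0.40, 0.29 and 0.44, and FDPS and DHCR7 also fell with ASO2, by 0.16 and 0.19. FDFT1 rose by 0.18 with ASO1 and fell by 0.24 with ASO2, and the rise was not called without IMR32 ASO1 replicate 1 or IMR32 NCA replicate 3 or 4 (0.14 to 0.16, adjusted p 0.0612 to 0.0726). ASO1 against ASO2, compared directly, gave 17 of 36 genes higher and 1 lower with ASO1 (all genes 9.17% and 12.8%). HMGCS1 (0.60, adjusted p 3.29e-07), MVD (0.57), INSIG1 (0.51), HSD17B7 (0.50) and MSMO1 (0.49) had the largest called differences. The calls for MVK (0.31) and FADS2 (0.17) were lost without IMR32 ASO1 replicate 2 or 3 or IMR32 ASO2 replicate 2 (0.24 to 0.28, adjusted p 0.0603 to 0.0893), and without IMR32 ASO1 replicate 2 (0.15, adjusted p 0.053). The gene lower with ASO1 was ACACA (-0.19), which makes malonyl-CoA and had 3327, 3064, 2949 and 3132 with ASO1, 3491, 3486, 3638 and 3634 with ASO2 and 3891, 4003, 4034 and 3958 with NCA. Both ASO groups of ACACA lay below NCA, by 0.35 and 0.16.

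Of SREBP and its regulators in IMR32, 5 of 5 fell with ASO2 (all genes 14.8%). SREBF2 had 3538, 3593, 3316 and 3399 with ASO1, 3070, 3092, 3121 and 2883 with ASO2 and 4094, 4029, 3699 and 3877 with NCA, with all NCA libraries highest and all ASO2 libraries lowest. It fell by 0.18 with ASO1 and 0.37 with ASO2. SREBF1 had 1404, 1688, 1616 and 1607 with ASO1, 1299, 1351, 1457 and 1260 with ASO2 and 1602, 1647, 1687 and 1666 with NCA, and SCAP had 923, 983, 916 and 885 with ASO1, 767, 789, 807 and 797 with ASO2 and 955, 1000, 971 and 914 with NCA, and for both the ASO2 libraries lay below NCA while those with ASO1 overlapped it. With ASO2 SREBF1 fell by 0.30 and SCAP by 0.28. INSIG2 had 137, 116, 102 and 118 with ASO1, 111, 84.8, 97.9 and 104 with ASO2 and 122, 139, 123 and 115 with NCA, the ASO2 libraries lying below NCA and those with ASO1 overlapping it. Its fall of 0.33 with ASO2 was not called without IMR32 ASO2 replicate 2 or IMR32 NCA replicate 2 (-0.27 to -0.26, adjusted p 0.0909 to 0.0994). SREBF1 fell with ASO2 in IMR32 and rose with it in NGP and SK-N-BE(2)c, and this difference from IMR32 was not tested.

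MYLIP had 239, 269, 259 and 285 with ASO1, 217, 211, 217 and 201 with ASO2 and 142, 173, 185 and 171 with NCA in IMR32, with NCA lowest and ASO1 highest. It rose by 0.65 with ASO1, the largest called change of a member there, and by 0.34 with ASO2. ABCG1, with 14.6, 16.4, 17.1 and 14.2 with ASO1, 15.8, 10.4, 19.8 and 18.3 with ASO2 and 20.1, 25.9, 17.6 and 20.2 with NCA, was called with neither ASO (-0.40, adjusted p 0.203, and -0.39, adjusted p 0.197). STARD4 had 0.12 and 0.07.

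Of the 9 fatty acid genes in IMR32, 1 rose and 3 fell with ASO1 (all genes 13.6% and 14.4%). With ASO2, 0 rose and 6 fell (all genes 17.6% and 14.8%). FASN rose by 0.18 with ASO1. ACSS2 had 158, 190.2, 177 and 164 with ASO1, 190.3, 154, 156 and 142 with ASO2 and 189.9, 213, 201 and 237 with NCA, and both ASO groups overlapped NCA. It fell by 0.39 with ASO2 and by 0.29 with ASO1, and the latter was not called without IMR32 ASO1 replicate 1, 3 or 4 or IMR32 NCA replicate 2 or 4 (-0.30 to -0.23, adjusted p 0.0503 to 0.125), or after rescaling to equal totals (-0.26, adjusted p 0.052). ELOVL6 had 694, 597, 587 and 586 with ASO1, 687, 655, 633 and 632 with ASO2 and 741, 794, 737 and 725 with NCA, with NCA highest. It fell by 0.29 with ASO1 and by 0.20 with ASO2, the latter not called without IMR32 NCA replicate 2 (-0.17, adjusted p 0.0573). FADS2 had 3379, 3331, 3177 and 2895 with ASO1, 2861, 2845, 2786 and 2818 with ASO2 and 3214, 3301, 3109 and 3079 with NCA, and fell by 0.17 with ASO2, all of whose libraries were below NCA.

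AACS had 853, 972, 960.2 and 1014 with ASO1, 829, 833, 938 and 873 with ASO2 and 898, 1007, 1032 and 1046 with NCA in IMR32, with overlap. Its fall of 0.20 with ASO2 was not called without IMR32 ASO2 replicate 2 or IMR32 NCA replicate 2, 3 or 4 (-0.19 to -0.17, adjusted p 0.0516 to 0.071). FADS1 fell by 0.17 with ASO2, which was not called without IMR32 ASO2 replicate 3 or IMR32 NCA replicate 1 or 2 (-0.16 to -0.14, adjusted p 0.0566 to 0.0631). SCD had 14939, 12562, 12394 and 12602 with ASO1, 13392, 12274, 11375 and 11505 with ASO2 and 13794, 12600, 11805 and 12188 with NCA, and ACLY had 8211, 7139, 7097 and 7134 with ASO1, 8102, 7433, 6838 and 7036 with ASO2 and 8497, 7810, 7533 and 7738 with NCA. For both, ASO1 replicate 1 was the highest library of its group and the groups overlapped. SCD and ACLY were called with neither ASO in IMR32 (SCD 0.06 and -0.05, ACLY -0.10 and -0.10). At each replicate number, however, ACLY was lower with each ASO than with NCA. A fit with the replicate number as a block, given below, called ACLY lower with both ASOs. The remaining members, ACAT2, MVK, PMVK, SQLE, LSS, CYP51A1, TM7SF2, LBR, NSDHL, EBP and SC5D, were called against NCA with neither ASO in IMR32. With the block, MVK, PMVK, SQLE, LSS, TM7SF2 and NSDHL among them were called with at least 1 ASO.

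**Figure D5:**
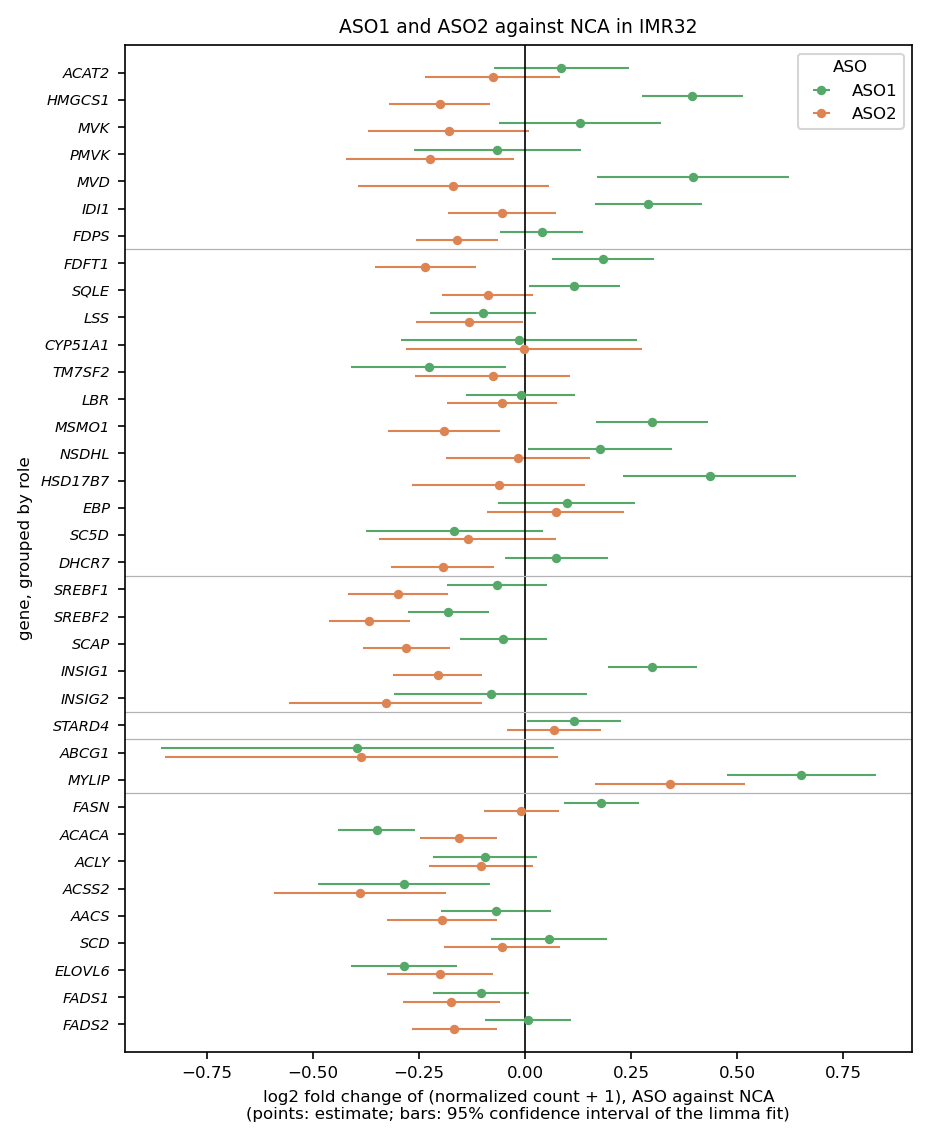
Log2 fold change in IMR32 with ASO1 and with ASO2 against NCA for each gene tested (points), with its 95% confidence interval (bars), grouped by role. HMGCS1, MSMO1 and INSIG1 lie above 0 with ASO1 (0.39, 0.30 and 0.30) and below it with ASO2 (-0.20, -0.19 and -0.21).

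Beside the 37 genes, 48 others of sterol, isoprenoid and fatty acid metabolism were read from the same fits. With ASO10, 15 of 44 tested rose and 13 fell in NGP (median 0.03, all genes 26.8% and 27.6%). In SK-N-BE(2)c 14 of 44 rose and 16 fell (median -0.09, all genes 27.8% and 31.1%). With ASO2, 20 of 44 rose and 13 fell in NGP (all genes 30.6% and 28.1%). In SK-N-BE(2)c 16 of 44 rose and 17 fell with it (all genes 33.6% and 33.4%). In IMR32, 7 of 46 rose and 9 fell with ASO1 (all genes 13.6% and 14.4%). With ASO2 4 rose and 7 fell there (all genes 17.6% and 14.8%).

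Of these others, the largest called changes with ASO2 were falls of LPCAT3, an LXR target that remodels phospholipids, by 1.34 in NGP and by 1.67 in SK-N-BE(2)c, of PDSS2, which acts in ubiquinone synthesis, by 1.13 in NGP, and of SOAT1, which esterifies cholesterol for storage, by 1.26 in SK-N-BE(2)c. With ASO10, PDSS2 fell by 1.51 in NGP and by 1.34 in SK-N-BE(2)c, ACSL4, which activates polyunsaturated fatty acids, fell by 1.32 in SK-N-BE(2)c, and CYP27A1, which makes an oxysterol, rose by 1.27 (SE 0.52) in NGP. The call for CYP27A1 was lost without NGP NCA replicate 1 or 2 (0.90 to 1.04, adjusted p 0.141 to 0.164), with no filter on low values (1.27, adjusted p 0.107), or with DESeq2 (1.14, adjusted p 0.0951). In IMR32, ELOVL7, an elongase of fatty acids, fell by 0.92 with ASO1 and 0.48 with ASO2, NR1H3, which encodes an LXR, rose by 0.57 with ASO1, and DGAT2, which makes triglycerides, fell by 0.55 with ASO2. The call for NR1H3 was lost without IMR32 ASO1 replicate 3 or IMR32 NCA replicate 4 (0.48 to 0.49, adjusted p 0.066 to 0.071), and that for DGAT2 without IMR32 ASO2 replicate 4 or IMR32 NCA replicate 2 (-0.45 to -0.41, adjusted p 0.0525 to 0.068). TMEM97, a sterol-regulated membrane protein, rose by 0.53 with ASO10 in NGP and fell by 0.28 in SK-N-BE(2)c, a difference of -0.82 (adjusted p 1.01e-07). ACACB, which makes malonyl-CoA at mitochondria, had a higher ASO10 effect in SK-N-BE(2)c (difference 0.86, adjusted p 0.011). MBTPS1, the Golgi protease that first cleaves SREBP, was picked after its values were seen. It fell with ASO2 by 0.75 in NGP and by 0.76 in SK-N-BE(2)c and rose with ASO10 by 0.21 and 0.18.

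In ASO2 against ASO10, 17 of 44 of these others were higher and 16 lower in NGP (all genes 30.6% and 28%). In SK-N-BE(2)c 19 of 44 were higher and 16 lower (all genes 34.6% and 30.8%). The largest called differences were CYP27A1 (-1.50) and DHDDS, which acts in dolichol synthesis (1.20), in NGP, and LPCAT3 (-1.58) and NR1H3 (-1.49) in SK-N-BE(2)c. That of CYP27A1 was not called without NGP ASO2 replicate 2 (-0.94, adjusted p 0.13). In ASO1 against ASO2 in IMR32, 8 of 46 were higher and 6 lower with ASO1 (all genes 9.17% and 12.8%), led by DGAT2 (0.80) and ELOVL7 (-0.43). The ASO2 effect was lower in SK-N-BE(2)c than in NGP for 7 of 45 and higher for 1 (all genes 7.95% and 8.79%). The ASO10 effect was lower for 6 of 45 and higher for 4 (all genes 8.78% and 8.09%). Among the called ASO2 differences were those of GPAM, which starts glycerolipid synthesis (-0.49), and ME1, which makes NADPH. ME1 was under the mean of 10 normalized counts in NGP and entered the fit through SK-N-BE(2)c, so no difference is read from it, and its value was -2.30 as fitted, -1.12, adjusted p 0.00295, with pseudocount 5 and -4.89, adjusted p 0.00988, with edgeR. Without ME1, 6 were lower.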

How the data were processed

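RNA-seq of 30 libraries was analysed from 1 deposited table per cell line. The authors deposited normalized gene counts, per the labels, and they were treated as a normalized signal. The submitters' processing notes name FastQC 0.11.8, cutadapt 1.18, STAR 2.6.0, HTSeq 0.6.1, DESeq2 1.42.0, hg19 and GRCh37, without their roles. The labels' protocols name 2 library kits, one for total RNA and one for mRNA, both stranded, and which library had which is not given in the sources used here.

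The steps between low values gave whole reads for 100% of values (tolerance 0.1 reads). Tests used limma 3.58.1 in R 4.3.3 on log2(value + 1), with group means in 1 fit per line, moderated variances with a trend, a mean of at least 10, and Benjamini-Hochberg adjustment over all genes tested. The difference between NGP and SK-N-BE(2)c came from 1 fit over their 18 libraries. The fits were tested on simulated data first. The alternatives were edgeR 4.0.16 and DESeq2 1.42.0 on recovered reads, pseudocount 5, no filter on low values, rescaling to equal totals, the replicate number as a block, leaving out each library, and a log2 fold change of at least 0.5.

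The members, lists and tests were chosen with earlier results of these data known. All members are named, but for the direct comparisons of 2 ASOs only some of the called members are given by name. The value in every library is given for members called with one sign against NCA with both ASOs of a line in at least 2 lines, the 4 with the smallest adjusted p in ASO2 against ASO10 in each of NGP and SK-N-BE(2)c, the one with the largest called change in each comparison with NCA, and SREBF1, SREBF2 and INSIG1, besides members picked after seeing their values (IDI1, MVD, HSD17B7, STARD4, ABCA1 and ACACA). Of the 48 other genes the 2 with the largest called change per comparison are named. No 2 replicates of a group agreed within sampling noise (chi-square divided by its degrees of freedom was at least 1.27). Symbols, looked up by gene ID, were found for 99.9% of entries in IMR32 and 89.8% in the other tables.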

Additional observations from a re-analysis of the deposited data

Results flagged for a closer look

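In IMR32, ASO1 replicate 1 lay above the other 3 libraries of its group by Dixon's 95% criterion for 3 members. They were ACLY (8211 normalized counts against 7097 to 7139), SCD (14939 against 12394 to 12602) and ELOVL6 (694 against 586 to 597). Replicate 1 was also the highest ASO2 library for ACLY (8102), SCD (13392) and ELOVL6 (687), and the highest NCA library for ACLY (8497) and SCD (13794). The ASO1 values were 3 of 45 group values examined in IMR32, and chance gives about 1 in 20. All 3 came from 1 library, so they are not independent.

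The effect of an ASO against NCA differed between SK-N-BE(2)c and NGP, by limma over both lines, for several of the named members. For ASO2 the difference was -0.45 for HMGCS1, -0.55 for MSMO1, -0.74 for INSIG1 and -0.38 for ELOVL6. For ASO10 it was -1.29 for HMGCS1, -1.56 for MSMO1, 0.32 for SCAP, -1.17 for INSIG1, -0.69 for MYLIP, -0.29 for ACLY, -0.43 for SCD and -0.47 for ELOVL6. The calls for MSMO1 and ELOVL6 with ASO2 and for SCAP with ASO10 were lost without single libraries, as given above.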

How the results depend on the processing

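Of 454 counts of members under the alternatives, 414 stayed within 1.5 times the reported count, and of 7363 values of single genes 6920 kept their direction and side of the threshold. No called value changed sign. A log2 fold change of at least 0.5 left these counts higher and lower: in IMR32 1 and 0 for ASO1, 0 and 0 for ASO2, and 3 and 0 for ASO1 against ASO2. In NGP it left 4 and 6 for ASO2, 14 higher for ASO10, and 2 and 12 for ASO2 against ASO10. In SK-N-BE(2)c it left 2 and 7, 2 and 4, and 5 and 6. Of the differences between lines it left 3 lower for ASO2, and 1 higher and 13 lower for ASO10. Fewer genes pass by construction.

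The replicate number as a block gave 8 genes lower for ASO1 in IMR32 (4 without it) and moved no other count by over 1.5 times. In IMR32, deviations from the group means correlated at 0.26 to 0.33 across genes for replicate 1 and 0.11 to 0.16 for replicate 3, each of them matching its own number best in every pair of groups, but at -0.01 to 0.06 for replicates 2 and 4. NGP gave -0.06 to 0.12 over its 3 numbers, and SK-N-BE(2)c -0.05 to 0.07. Pairing was not taken as given, since it was set to need over 0.1 at every number. With the block in IMR32, 12 genes were higher for ASO1, 21 lower for ASO2 and 21 higher for ASO1 against ASO2, against 9, 16 and 17 without it. ACLY and LSS were then called lower with both ASOs (ACLY by -0.10 with each), TM7SF2 and FADS1 lower and SQLE, NSDHL and STARD4 higher with ASO1, and MVK, PMVK and SQLE lower with ASO2. The block ended the calls for HSD17B7 with ASO10 in SK-N-BE(2)c (0.46, adjusted p 0.0609) and INSIG2 for ASO2 against ASO10 in NGP (-0.35, adjusted p 0.0528). For the ASO2 difference between lines, edgeR and DESeq2 gave 1 and 1 higher, no filter on low values 5 lower and rescaling 15 lower. For ASO10, no filter and rescaling gave 1 and 1 higher. The cause was not tested.

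Leaving out each library gave 3 to 7 lower for ASO1 in IMR32 (7 without ASO1 replicate 1), 3 to 6 higher for ASO2 against ASO10 in NGP (3 without ASO2 replicate 3), 0 to 1 higher for the ASO2 difference (1 without NGP ASO2 replicate 3 or NCA replicate 3), 5 to 10 lower (5 without SK-N-BE(2)c NCA replicate 3), and 1 to 3 higher for the ASO10 difference (1 without NGP ASO10 replicate 1 or 3, NGP NCA replicate 1 or 2, SK-N-BE(2)c ASO10 replicate 2 or 3, or SK-N-BE(2)c NCA replicate 2 or 3). With 3 or 4 libraries a group, small changes may be missed, and the library kit of each library is not given in the sources used here.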
